A study of Homo sapiens with 18 samples.

Results

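The transcriptome of HEK293 cells carrying p65 with the S547A change was compared with that of cells carrying wild-type p65 (wt) after 8 h of etoposide. The comparison takes the 3 arrays of each line at 8 h, 6 of the 18 arrays of the series, and every gene with a probe detected above the array's background (detection p under 0.05) on at least 3 of the 18 arrays. These are 12055 of the 20045 genes named on the array. At 8 h, 8957 of them were detected on all 6 arrays, 306 on none, 567 only on S547A arrays and 489 only on wt arrays. The 603 genes that just met the limit, with their best probe detected on 3 arrays, had a median log2 level of 4.94 at 8 h, and the 897 genes just below it, detected on 2, a median of 4.86.

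HEK293 is a human embryonic kidney line. In every group, controls included, p65 siRNA silenced the endogenous protein, and lentivirus supplied an siRNA resistant p65 with an HA tag, either HA-p65wt or HA-p65S547A. Cells of each line were left untreated or received etoposide for 4 h or 8 h, in 3 independent experiments per group according to the series text, which makes 6 groups of 3 arrays of total RNA. The dose, the promoter of the transgene and whether each line is a clone are not given in the sources used here, and neither is the place of each array on its chip, so that a chip effect was not tested.

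Etoposide traps type II topoisomerases on cut DNA and leaves double-strand breaks. The kinase ATM, activated by such breaks, signals to the IkB kinase complex, the IkB inhibitors are degraded, and NF-kB dimers enter the nucleus and bind kappaB sites. p65, encoded by RELA, is the subunit with a strong transactivation domain, and its targets include chemokines, adhesion molecules and the inhibitors that end the response. The serine that S547A replaces lies in the carboxy-terminal transactivation part of p65 and has been described as a phosphorylation site of ATM. Alanine cannot accept a phosphate. The comparison asks which transcripts differ in the presence of the drug when that serine is absent.

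The arrays of both lines were alike in quality. At 8 h between 37.1% and 38.6% of the probes were detected, against 35.8% to 39.2% over all 18 arrays. Median intensities at 8 h were 108 to 110 for wt and 96.7 to 108 for S547A. Arrays correlated across genes at r = 0.985 to 0.989 within a line at 8 h and at 0.985 to 0.988 between the lines, with genes that are not independent replicates. Of 11 marker genes on the array for HEK293 cells, 8 were detected on every 8 h array of each line. PAX2 and PAX8 were detected on none of them, and LHX1 on no wt array. The summed linear level of the HEK293 markers was 19221 to 22321 in wt and 21940.3 to 24892 in S547A. All 8 endothelial markers, PECAM1, CDH5 and VWF among them, were undetected in both lines, the cell type in which SELE and VCAM1 are best known. For blood, fibroblast and epithelial cells, 1 marker each of 11, 9 and 8 was detected on all arrays of either line.

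RELA itself, measured by a single probe, had normalized log2 levels of 9.19, 9.25 and 9.23 on the wt arrays at 8 h and 9.68, 9.59 and 9.80 on the S547A arrays. The 3 S547A arrays lay above the 3 wt arrays. The difference of 0.47 ± 0.15 (log2, SE of the limma fit, n = 3 per line) did not pass the test over all genes (limma adjusted p = 0.557). On the untreated arrays the line difference in RELA was 1.07 ± 0.15 and passed (adjusted p = 0.018), and at 4 h it was 0.73 ± 0.15 (adjusted p = 0.127). Where this probe binds in the mRNA is not given in the sources used here, so silenced endogenous message and transgene message cannot be told apart, and the array does not measure the protein. A RELA level that was higher in S547A cells therefore stands beside every result given here, and its part in them was not tested.

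Promoter sequences are shown for 5 of the genes that differed, SELE, VCAM1, CXCL1, CXCL2 and TNFAIP3. These genes cover the adhesion, chemokine and feedback roles described next, and all 5 hold a match to the kappaB sites that p65 binds. Called genes without a match, ICAM1, TNFAIP2 and CD83 among them, are not shown. Each sequence shown is the 250 bases upstream of the gene's start on the gene's strand, from RefSeq on GRCh38.p14. Letters are in lower case, with matches to the kappaB consensus in capitals. The consensus was GGGRNNYYCC on either strand, where R is A or G, Y is C or T and N is any base. The windows are chr1:169734080-169734329 (minus strand) for SELE, chr1:100719492-100719741 (plus strand) for VCAM1, chr4:73869143-73869392 (plus strand) for CXCL1, chr4:74099196-74099445 (minus strand) for CXCL2 and chr6:137867009-137867258 (plus strand) for TNFAIP3.
SELE: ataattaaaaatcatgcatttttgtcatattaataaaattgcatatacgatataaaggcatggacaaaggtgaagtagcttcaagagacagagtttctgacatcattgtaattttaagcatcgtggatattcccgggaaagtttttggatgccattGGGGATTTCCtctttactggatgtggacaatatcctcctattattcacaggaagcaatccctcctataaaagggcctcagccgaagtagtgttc
VCAM1: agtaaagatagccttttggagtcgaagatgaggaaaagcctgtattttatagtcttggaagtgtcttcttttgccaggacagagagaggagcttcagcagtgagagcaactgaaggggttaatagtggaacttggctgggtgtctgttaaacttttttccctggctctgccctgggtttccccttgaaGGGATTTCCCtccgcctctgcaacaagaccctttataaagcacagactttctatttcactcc
CXCL1: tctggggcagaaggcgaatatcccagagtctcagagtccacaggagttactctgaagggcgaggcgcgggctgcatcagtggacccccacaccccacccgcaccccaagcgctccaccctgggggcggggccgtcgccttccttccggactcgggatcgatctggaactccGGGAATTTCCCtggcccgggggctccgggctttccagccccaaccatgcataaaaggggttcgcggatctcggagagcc
CXCL2: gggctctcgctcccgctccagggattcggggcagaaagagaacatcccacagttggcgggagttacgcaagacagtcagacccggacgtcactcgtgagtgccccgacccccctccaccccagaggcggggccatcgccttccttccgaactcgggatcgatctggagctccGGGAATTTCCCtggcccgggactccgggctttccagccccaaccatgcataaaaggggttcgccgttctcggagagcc
TNFAIP3: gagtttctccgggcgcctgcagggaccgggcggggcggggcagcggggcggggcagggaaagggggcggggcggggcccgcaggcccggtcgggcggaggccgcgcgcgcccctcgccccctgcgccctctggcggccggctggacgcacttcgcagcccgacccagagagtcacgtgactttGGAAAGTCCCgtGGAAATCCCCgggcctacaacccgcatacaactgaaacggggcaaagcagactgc

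The match in SELE, GGGGATTTCC, begins 94 bases before the start, and that in VCAM1, GGGATTTCCC, 62 bases before it. CXCL1 and CXCL2 each hold the same pair of overlapping matches, GGGAATTTCC and GGAATTTCCC, which begin 79 and 78 bases before the start in CXCL1 and 78 and 77 in CXCL2. TNFAIP3 has separate matches at 67 and 55 bases. Of the 13 genes called at 8 h, 11 had an entry in the promoter table, all but PI3 and CCL5, and 6 of the 11 (54.5%) held a match on either strand: these 5 and BTK. Among all 27305 promoters of the table the share was 9.57%, and among the tested genes with an entry it was 11.5% of 9654. It was 51.2% (21 of 41) for known NF-kB target genes, 17.6% (3 of 17) for p53 target genes and 5% (1 of 20) for immediate early genes. A match is a run of letters and not a measured site. ICAM1, TNFAIP2, C5, CD83 and HAND1 had no match to this consensus in the window, which does not show that they lack a kappaB site. A run that departs from the consensus, such as tggaaattcc in the ICAM1 window, was not counted.

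After 8 h of etoposide 13 of the 12055 genes (0.108%) were called different between the lines (limma adjusted p under 0.05), and all 13 were higher in S547A. The genes are SELE, VCAM1, PI3, ICAM1, BTK, CXCL2, CXCL1, TNFAIP2, TNFAIP3, CCL5, C5, CD83 and HAND1. Of these, 10 had a fitted difference of at least 2-fold (0.083% of the genes tested). Among the 10, ICAM1, BTK and TNFAIP2 were detected on no more than 1 wt array, so their fitted folds depend on readings near background. No gene was called lower, while at an unadjusted p under 0.05 there were 395 genes higher and 395 lower (3.28% each). Most genes hardly moved: the median difference over all genes was -0.02 (log2), the median size of a difference 0.14, and the 1st and 99th percentiles lay at -0.53 and 0.58. The call count depends on single arrays. It was 5 without wt replicate 1, 8 without wt replicate 2, 9 without wt replicate 3, and 8, 9 and 7 without S547A replicates 1, 2 and 3. SELE, VCAM1, PI3, CXCL2 and TNFAIP3 passed in each of these 6 fits. Since the arrays measure whole cultures, a higher level per cell and a larger share of expressing cells cannot be told apart.

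**Figure D1:**
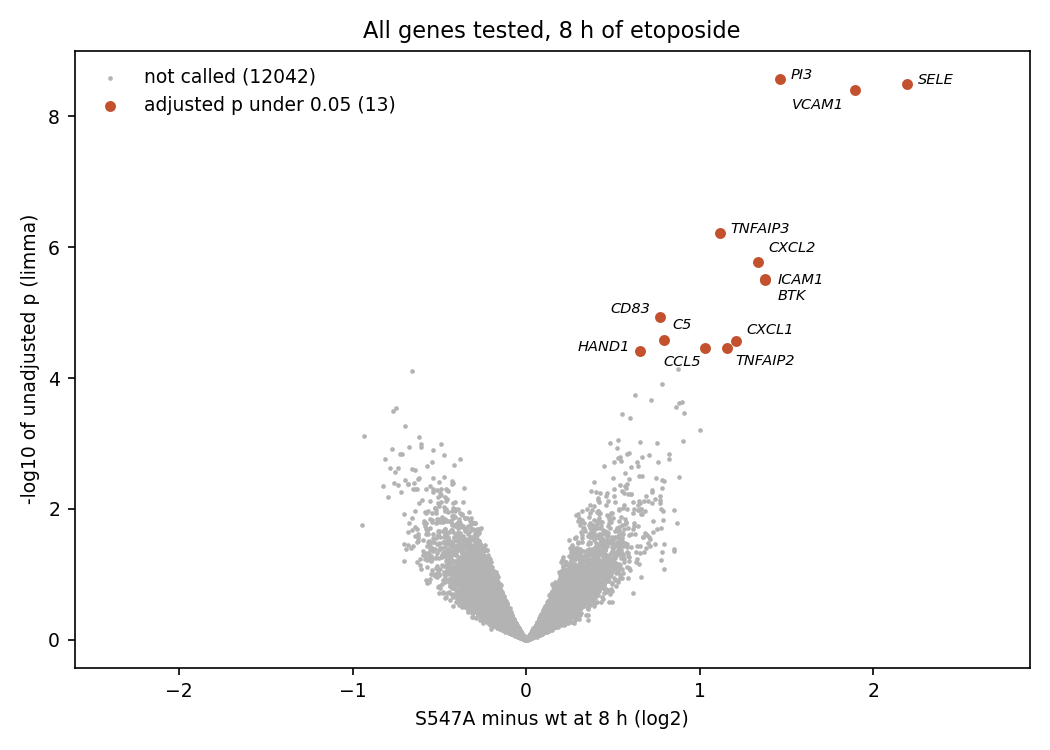
Each point is 1 of the 12055 genes tested, with the S547A minus wt difference at 8 h (log2) on the x axis and -log10 of the unadjusted limma p on the y axis. The 13 called genes, drawn in red and named, all lie on the right, and PI3, SELE and VCAM1 stand far above the others.

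SELE, VCAM1 and ICAM1, adhesion molecules through which leukocytes are captured on vessel walls, were all called higher in S547A. SELE encodes E-selectin, which slows rolling leukocytes. Its log2 level was 8.69, 8.75 and 8.71 on the wt arrays and 10.66, 11.18 and 10.89 on the S547A arrays, a gap wider than the range of either line. The difference was 2.20 ± 0.19 (95% interval 1.78 to 2.61), or 4.58-fold, with a limma adjusted p of 1.61e-05. VCAM1 encodes a ligand of leukocyte integrins. It measured 6.11, 6.15 and 6.49 in wt and 8.06, 8.20 and 8.17 in S547A, again without overlap, which is a difference of 1.89 ± 0.17 or 3.71-fold (adjusted p = 1.61e-05).

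ICAM1, the ligand of the integrin LFA-1, was detected on all 3 S547A arrays (6.32, 6.12 and 6.60) and on no wt array (4.79, 5.19 and 4.93). Against the lowest detected level of the wt arrays it was at least 2.18-fold higher in S547A, and the fitted difference was 1.38 ± 0.20 (limma adjusted p = 0.00544). Without wt replicate 1 or without S547A replicate 3 its adjusted p was 0.0572 and 0.0575. ICAM1 was detected on 5 of the 18 arrays in all, so it entered the test through the S547A arrays at 8 h. The same holds for TNFAIP2 and BTK. The second kept probe of SELE gave 0.43 and was detected on none of the 6 arrays, and the dimmer probes of VCAM1 gave 0.69 (detected on 2 wt and 3 S547A arrays) and 0.19 (on 0 and 1). The size of the SELE and VCAM1 differences therefore rests on their brightest probe, and with the mean of all kept probes they were 1.31 and 0.92, both still called.

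PI3 encodes elafin, a secreted inhibitor of elastase. It stood at 8.18, 8.50 and 8.17 in wt and at 9.70, 9.79 and 9.75 in S547A. The S547A arrays lay close together and far above wt, and the difference of 1.46 ± 0.13, or 2.76-fold, had a limma adjusted p of 1.61e-05. CD83 encodes an immunoglobulin-type surface protein of activated immune cells. Its wt arrays gave 9.36, 9.49 and 9.44 and its S547A arrays 10.19, 10.21 and 10.22. The spread within a line was again small, and the difference was 0.77 ± 0.13 (adjusted p = 0.0174), with 0.75 from its second probe. The CD83 call ended without any of the 6 arrays, with adjusted p between 0.0603 (without wt replicate 2) and 0.117 (without wt replicate 1).

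TNFAIP2, a TNF-induced gene linked to membrane tubes between cells, was detected at 6.87, 5.74 and 5.95 on the S547A arrays and was undetected in wt at 5.01, 5.18 and 4.90. S547A replicate 1 stood well above the other S547A arrays. TNFAIP2 was at least 1.95-fold higher in S547A (fitted difference 1.16 ± 0.21, limma adjusted p = 0.035), and 0.82 without S547A replicate 1. The call ended without wt replicate 1, 2 or 3 (adjusted p = 0.143, 0.108 and 0.17) and without S547A replicate 3 (0.0621).

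The sizes for dim genes depend on the background correction. In the authors' deposited normalized intensities, taken to log2 without such a correction, the difference was 1.20 for VCAM1, 0.58 for ICAM1, 0.59 for BTK, 0.61 for CXCL2, 0.49 for TNFAIP2, 0.54 for CCL5 and 0.32 for C5. TNFAIP2 (limma adjusted p = 0.094) and C5 (0.402) then lost their calls, while the others in this list kept theirs.

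**Figure D2:**
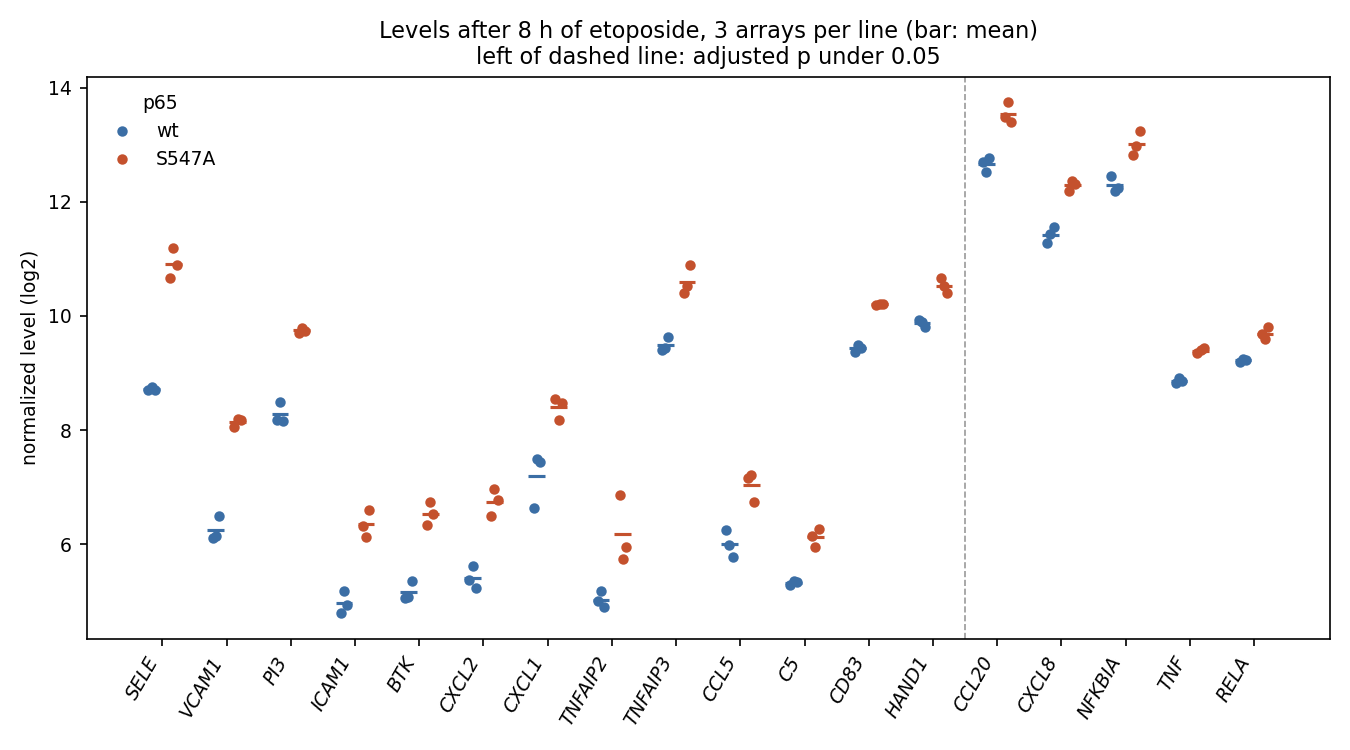
Normalized log2 level (y axis) of each of the 3 wt arrays (blue) and the 3 S547A arrays (red) at 8 h, with a bar at each mean, for the 13 called genes left of the dashed line and for CCL20, CXCL8, NFKBIA, TNF and RELA right of it. In all 18 genes the S547A points lie above the wt points, by 2.20 on average for SELE and 0.47 for RELA.

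Among the chemokines, the neutrophil attractants CXCL1 and CXCL2 and the T cell attractant CCL5 were called higher. CXCL2 was low in wt (5.38, 5.63 and 5.23) and reached 6.50, 6.96 and 6.78 in S547A. The lines did not overlap, with a difference of 1.33 ± 0.19 and a limma adjusted p of 0.00406. CXCL1 ran from 6.63 over 7.44 to 7.49 in wt and was 8.54, 8.18 and 8.47 in S547A, a difference of 1.21 ± 0.21 (adjusted p = 0.0322). Its lowest wt value was wt replicate 1, and without that array the difference was 0.93 with an adjusted p of 0.129. The CXCL1 call also ended without S547A replicates 1, 2 or 3 (adjusted p = 0.166, 0.0532 and 0.185). These 2 genes are close relatives, and how far their probes tell them apart was not tested.

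CCL5 measured 6.26, 5.99 and 5.77 in wt and 7.16, 7.21 and 6.74 in S547A. The difference of 1.03 ± 0.18 passed narrowly (limma adjusted p = 0.035). It did so without S547A replicate 3 only, and in the other 5 fits that left out an array the adjusted p was 0.0562 (without wt replicate 1) to 0.191 (without S547A replicate 2).

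CCL20, which attracts cells that carry CCR6, was among the brightest NF-kB targets in both lines, at 12.70, 12.52 and 12.77 in wt and 13.49, 13.74 and 13.39 in S547A. Its lines did not overlap either, yet the difference of 0.88 ± 0.17 missed the threshold (limma adjusted p = 0.0635). CXCL8, the gene of interleukin-8, read 11.28, 11.44 and 11.55 with wt p65 against 12.18, 12.36 and 12.32 with S547A. That is 0.86 ± 0.19 (adjusted p = 0.158), and its other probe gave 1.06. CXCL10, an attractant of T cells, differed by 1.00 ± 0.24 (adjusted p = 0.267). TNF, the cytokine, measured 8.82, 8.91 and 8.86 against 9.34, 9.40 and 9.43, a difference of 0.53 ± 0.13 that did not pass (adjusted p = 0.331). CXCL10, and SGPP2 below, were picked for mention after their values were seen.

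The feedback inhibitors of the pathway were represented by TNFAIP3 and NFKBIA. TNFAIP3 encodes A20, which edits ubiquitin chains and shuts down signalling to the IkB kinases. The wt arrays gave 9.40, 9.44 and 9.62 and the S547A arrays 10.40, 10.52 and 10.89, without overlap, a difference of 1.11 ± 0.14 or 2.17-fold (limma adjusted p = 0.00181). NFKBIA encodes IkB-alpha, which carries p65 back to the cytoplasm. It was at 12.45, 12.19 and 12.24 in wt and at 12.83, 12.97 and 13.24 in S547A. The difference of 0.72 ± 0.15 missed the threshold (adjusted p = 0.144).

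The remaining called genes have other roles. BTK encodes a tyrosine kinase of B cell receptor signalling. It was detected on 1 of 3 wt arrays (5.06, 5.07 and 5.36) and on all S547A arrays (6.33, 6.73 and 6.54), with a difference of 1.37 ± 0.20 (limma adjusted p = 0.00544, and 0.0562 without wt replicate 1). C5, a component of complement, was 5.29, 5.36 and 5.34 against 6.14, 5.95 and 6.27. Both lines were near the lower end of detection, the difference was 0.79 ± 0.14 (adjusted p = 0.0322), and the call held without S547A replicate 2 only, with adjusted p of 0.109 (without wt replicate 3) to 0.195 (without S547A replicate 3) in the other 5 fits. HAND1, a developmental transcription factor, is the 13th called gene and was named after its values were seen. Its wt arrays read 9.93, 9.90 and 9.81 and its S547A arrays 10.66, 10.53 and 10.40, a difference of 0.66 ± 0.12 (adjusted p = 0.0357). The HAND1 call ended without any of the 6 arrays (adjusted p = 0.0648 without S547A replicate 3 to 0.21 without S547A replicate 1).

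The same genes were then followed on the arrays of the other conditions. The differences at 8 h are not computed from these arrays, but they share in the estimate of the spread and in the detection filter, so the 8 h calls are not independent of them, and with the 8 h arrays alone 6 genes were called. In untreated cells none of the 13 was called between the lines, where 5 of 12055 genes (0.0415%) were. Their differences there ran from -0.30 to 0.39 with a median of 0.14. For 8 of the 13 (SELE, VCAM1, PI3, ICAM1, CXCL2, CXCL1, TNFAIP2 and C5) no untreated array of either line was above background, so that these are differences between background readings. BTK and TNFAIP3 were detected on 1 untreated array each, and CCL5, CD83 and HAND1 on all. SELE gave 4.80, 5.06 and 4.64 in untreated wt cells against 4.82, 4.94 and 5.15 in untreated S547A cells, undetected on all 6 arrays and overlapping. PI3 was likewise undetected in untreated cells of both lines, with wt arrays at 4.41 to 4.55 and S547A arrays at 4.62 to 4.80. TNFAIP3 lay between 4.90 and 5.25 over all untreated arrays, with overlapping lines, and was detected on 1. CCL20 and CXCL8, by contrast, already differed by 0.78 ± 0.17 and 0.79 ± 0.19 without drug, although neither passed (limma adjusted p = 0.252 and 0.349).

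After 4 h of etoposide 7 of the 13 were called higher in S547A: SELE, PI3, CXCL2, CXCL1, VCAM1, TNFAIP3 and HAND1. The background at 4 h was 10 called genes (0.083%), 9 of them higher (0.0747%), and the other 2 that were higher were CCL20 (1.13, limma adjusted p = 0.00754) and TNF (0.75, adjusted p = 0.0399). SELE stood at 7.32, 7.53 and 7.02 in wt and at 8.58, 9.40 and 8.99 in S547A, a difference of 1.70 ± 0.19 (adjusted p = 0.000763). PI3 differed by 1.55 ± 0.13 at 4 h (adjusted p = 1.33e-05), TNFAIP3 by 1.09 ± 0.14 (adjusted p = 0.00329) and CXCL2 by 1.33 ± 0.19 (adjusted p = 0.00545). VCAM1 was still undetected in wt at 4 h, with 4.45, 4.55 and 4.68, while S547A read 5.60, 6.06 and 5.50. Against the lowest detected level of the wt arrays the VCAM1 mean was 1.41-fold higher in S547A, a bound that allows for no error. The fitted difference was 1.16 ± 0.17 (limma adjusted p = 0.00754).

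The 6 other genes were not called at 4 h. ICAM1 read 5.52, 4.95 and 4.90 on the wt arrays and 5.20, 4.71 and 5.37 on the S547A arrays at that time, overlapping, with a difference of -0.03 ± 0.20. ICAM1 was detected on 1 array of each line, and BTK, C5 and TNFAIP2 were undetected in both lines at 4 h. CCL5 differed by 0.14 and CD83 by 0.61, and both were detected in every sample of the series.

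**Figure D3:**
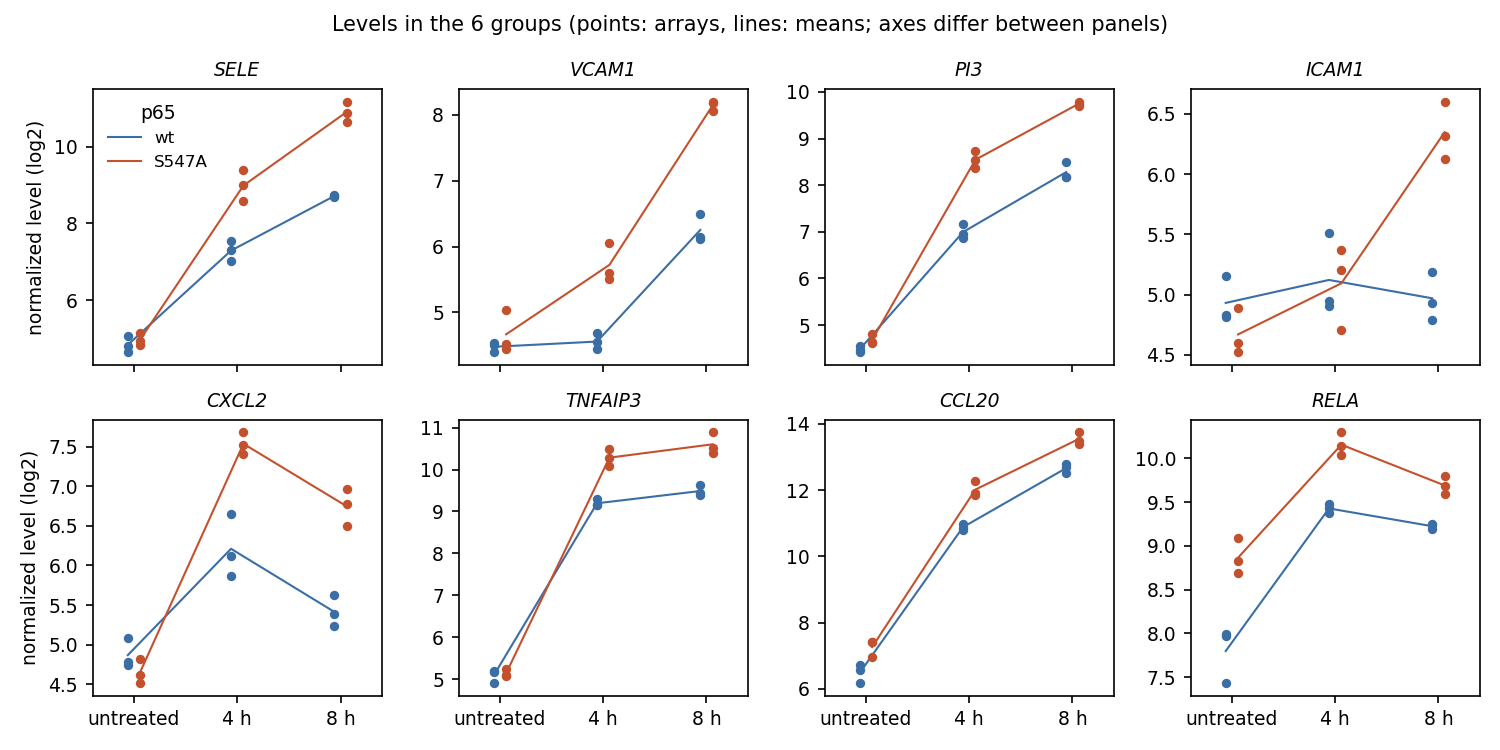
Normalized log2 level (y axis, with a scale of its own in each panel) on each array of the 6 groups (x axis: untreated, 4 h and 8 h of etoposide) for 8 genes, wt in blue and S547A in red, with lines through the means. SELE, PI3 and TNFAIP3 start near 5 in both lines and separate by 4 h, ICAM1 separates at 8 h, and RELA is apart by 1.07 before the drug.

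Whether the line difference at 8 h exceeded that of untreated cells was tested with the interaction term of the same fit. It shares the 8 h arrays with the comparison that chose the 13 genes, so their sign in it is not independent. Of all 12055 genes 3 were called (0.0249%), all higher. The fitted values were 2.06 ± 0.27 for SELE, 1.70 ± 0.24 for VCAM1 and 1.26 ± 0.18 for PI3, each with a limma adjusted p of 0.0103. Their untreated levels were not above background in either line, so the line difference before the drug was not measured and these values depend on the background readings, as do those of CXCL2, ICAM1 and C5. Without wt replicate 1 of 8 h none of the 3 passed (adjusted p = 0.0547 for each), and PI3 also missed it without wt replicate 3 of 8 h (0.0536) or without S547A replicate 3 of the untreated cells (0.0519). CXCL2 (1.55, adjusted p = 0.0567), ICAM1 (1.64, 0.0601), C5 (1.09, 0.0694) and TNFAIP3 (1.06, 0.103) were next among the 13. For CCL20, CXCL8 and NFKBIA the interaction was small, at 0.10 ± 0.24, 0.08 ± 0.27 and 0.13 ± 0.22. RELA went the other way with -0.60 ± 0.21 (adjusted p = 0.621), as its line difference was smaller at 8 h than without drug.

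No gene was called for a line difference that changed between 4 h and 8 h (limma, 0 of 12055, with 225 higher, 1.87%, and 280 lower, 2.32%, at an unadjusted p under 0.05). The lowest adjusted p of the 13 was 0.407. For ICAM1, BTK and TNFAIP2, each detected on no more than 1 wt array at either time, the size of such a change could not be measured. VCAM1 was undetected in wt at 4 h and C5 in both lines, so the size of their change was not measured either. CXCL2, CXCL1, TNFAIP3, HAND1 and PI3 gave 0.01, 0.04, 0.03, 0.00 and -0.09. CCL5, detected on all arrays, gave 0.89 ± 0.26, SELE 0.50 ± 0.27 and CD83 0.17 ± 0.18. Fitted values for ICAM1, BTK, TNFAIP2, VCAM1 and C5 were 1.40, 1.26, 0.82, 0.73 and 0.51, and rest on readings near background. Of the 13, 11 were positive and 6 had an unadjusted limma p under 0.05. The 8 h arrays that chose these genes enter these values, so their sign is not independent. Call at 8 h and no call at 4 h is thus not shown to be a difference between the times for ICAM1, BTK, TNFAIP2, CCL5, C5 or CD83.

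**Figure D4:**
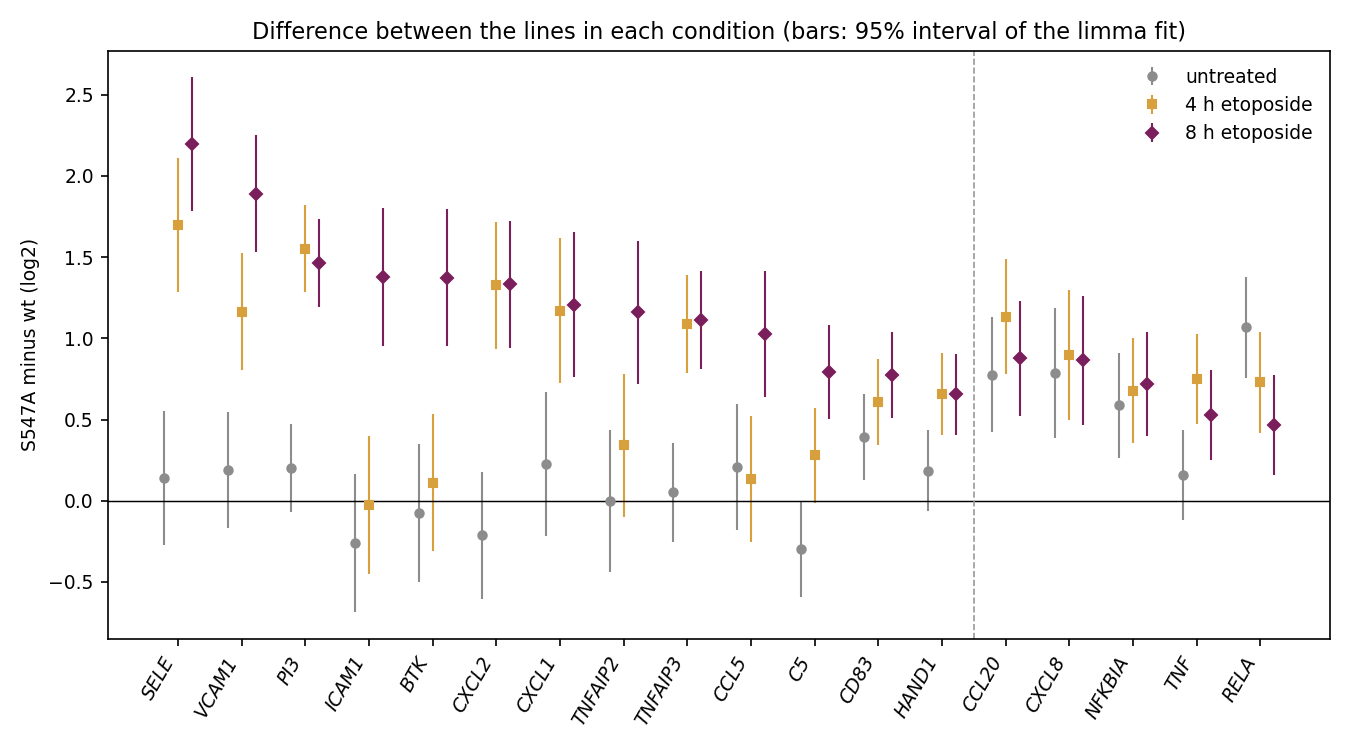
S547A minus wt difference (log2, y axis) in untreated cells (grey), at 4 h (yellow) and at 8 h (purple), with 95% intervals of the limma fit, for the 13 called genes and for CCL20, CXCL8, NFKBIA, TNF and RELA. The untreated points of the 13, of which 8 were undetected without drug, lie between -0.30 and 0.39, while those of CCL20, CXCL8 and NFKBIA are at 0.78, 0.79 and 0.59.

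How these genes responded to the drug in wt cells can be read from the 4 h and untreated wt arrays, from which the 8 h differences are not computed, although the same fit pools their spread. Of the 13 genes, 7 were called higher at 4 h than without drug in wt. CD83 and HAND1, detected before the drug, rose by 2.54 and 1.28 (log2). SELE, PI3, CXCL1 and CXCL2 had no untreated wt array above background. Only a bound on the rise of their means at 4 h could be had, of 4.25-fold, 3.46-fold, 6.42-fold and 2.01-fold. Such a bound allows for no error between arrays. TNFAIP3, detected on 1 of the 3 untreated wt arrays, had a fitted rise of 4.11 that depends on readings near background. Over all genes 753 were (6.25%), out of 1256 called in either direction (10.4%). VCAM1, ICAM1, BTK, TNFAIP2, CCL5 and C5 were not called. Of these CCL5, at 0.38, was detected on all 6 arrays, while VCAM1, TNFAIP2 and C5 were detected on none. The uncalled genes of the 8 h comparison responded strongly in wt as well, with CCL20 at 4.40, CXCL8 at 4.34 and NFKBIA at 2.83. TNF, undetected before the drug, was 9.38-fold higher by the same kind of bound on the means. RELA itself was higher by 1.63 in wt at 4 h.

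The NF-kB target genes were divided by role into chemokines and cytokines, adhesion, surface and secreted proteins, and feedback and survival genes. Of 48 such genes tested (66 listed), 10 were called higher (20.8%, against 0.108% of all genes) and none lower. Their median difference was 0.35, against -0.02 for all genes, and 40 of the 48 were positive. In 21 (43.8%) all S547A arrays lay above all wt arrays, against 4.95% of all genes, and in 0 below, against 7.42%. ICAM1 and TNFAIP2, counted among the 10 and the 21, entered the test only through the S547A arrays at 8 h, where they were high. At 4 h 8 of the 48 were called, all higher (16.7%, against 0.083% of all genes), with a median of 0.33 and 40 positive. In untreated cells 1 was called (2.08%, against 0.0415%), the median was 0.10 and 29 were positive. A shift of these genes was thus present at 4 h too. The lists were drawn up with earlier results of these data known.

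Of the 15 adhesion, surface and secreted targets tested, 6 were called higher: SELE, VCAM1, PI3, ICAM1, TNFAIP2 and CD83. Of these 6, ICAM1 and TNFAIP2 passed the detection filter only through the S547A arrays at 8 h. The median of the 15 was 0.66. SGPP2, a sphingosine phosphate phosphatase, averaged 8.31 ± 0.14 on the wt arrays and 9.19 ± 0.14 on the S547A arrays (SD, n = 3), 0.88 higher without a call (limma adjusted p = 0.147). PTGS2, the inducible cyclooxygenase, differed by 0.21 and TNFRSF9 by 0.08. Of 13 chemokines and cytokines 3 were called, CXCL1, CXCL2 and CCL5, with a median of 0.53. CXCL3, the near relative of CXCL1 and CXCL2, gave 0.43 and CXCL6 -0.06.

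Of the 20 feedback and survival targets only TNFAIP3 was called at 8 h, and the median was 0.09. At 4 h 1 was called as well (5%, against 0.083% of all genes), but the median was 0.31 and 18 were positive. Several targets of this role gave values near 0 at 8 h, among them NFKBIE (0.07), NFKBIZ (0.02), BCL3 (0.01), SOD2 (-0.04), TNIP1 (-0.07) and IER3 (-0.13). The differences between the medians of the 3 role groups were not tested.

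The pathway's own components did not pass. Of 27 tested genes, from receptor adaptors to subunits and IkB proteins, none was called, and the median was 0.02. NFKBIA (0.72), RELA (0.47) and RELB (0.41) were the highest and MAP3K14, the kinase of the non-canonical branch, the lowest (-0.44). The subunit genes NFKB1, NFKB2 and REL were at 0.09, 0.09 and 0.04, ATM at 0.02, and the IkB kinase genes IKBKB, CHUK and IKBKG at -0.14, 0.02 and -0.16.

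Coactivators and corepressors of p65 were also level on their brightest probes, with 0 of 24 called and a median of -0.01. HDAC1, a histone deacetylase that represses p65 targets, had means of 12.08 ± 0.13 (wt, SD) and 12.12 ± 0.16 (S547A), and HDAC3 and CREBBP differed by 0.09 and 0.10. EP300, an acetyltransferase of p65, gave -0.37 ± 0.21 (limma adjusted p = 0.781). CTBP1, a corepressor, is a case where probes disagreed. Its brightest probe differed by 0.02, while another of its 3 kept probes went from 5.87 in wt to 5.07 in S547A. That difference of -0.80 ± 0.13 was the only one called lower when all 22161 kept probes were tested (adjusted p over probes = 0.017).

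**Figure D5:**
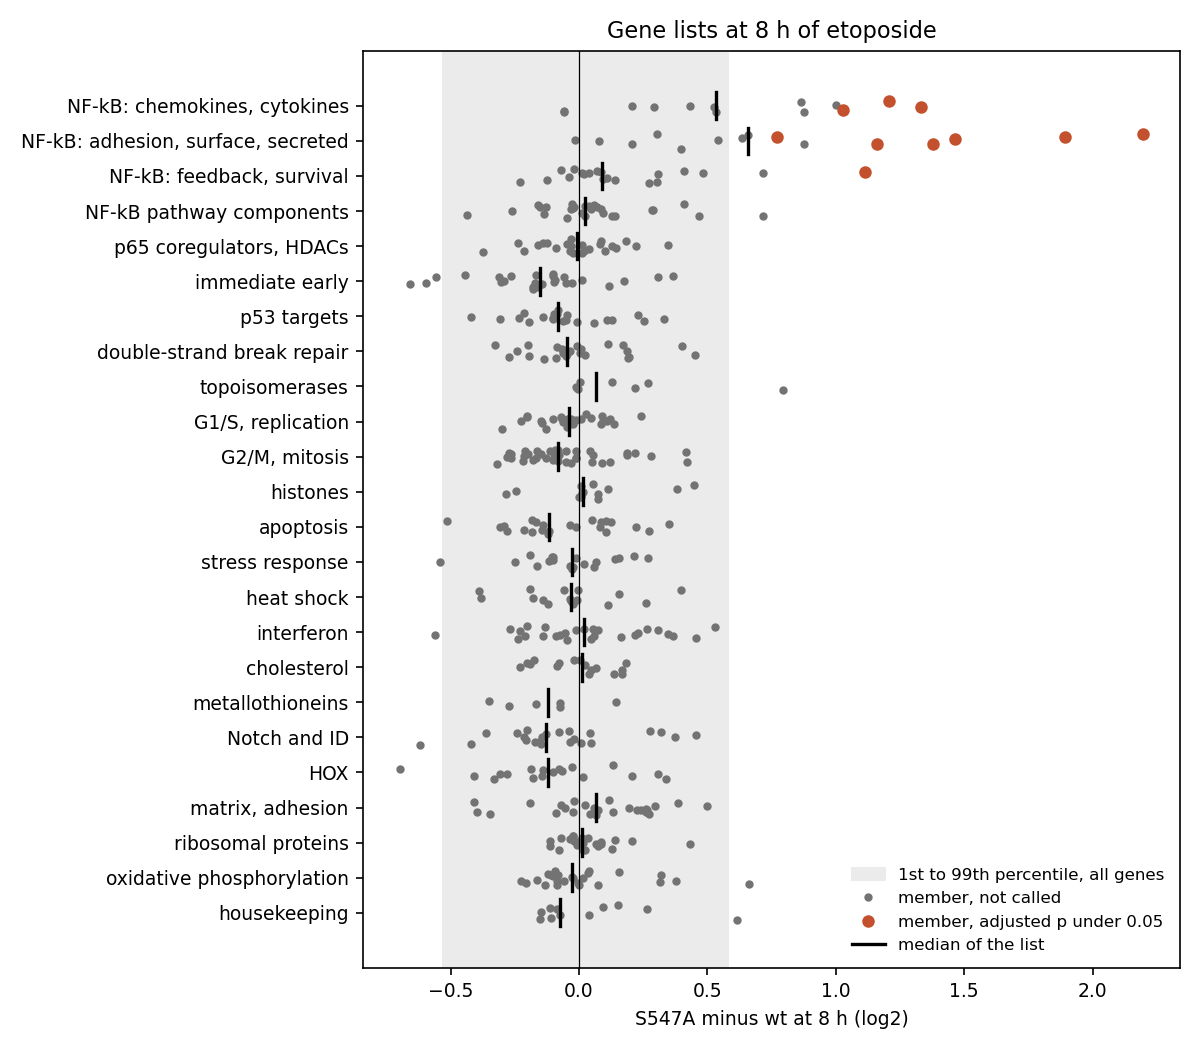
S547A minus wt difference at 8 h (log2, x axis) of each tested member of 24 gene lists (rows; vertical shifts within a row carry no value), with called members in red, a bar at each list's median and the 1st to 99th percentile of all genes (-0.53 to 0.58) shaded. The called members lie in the 3 NF-kB target lists, whose medians are 0.53, 0.66 and 0.09.

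Genes of the lists linked to other effects of the drug showed no call. Of 22 p53 target genes 0 were called, the median was -0.08, and CDKN1A (p21), an inhibitor of cyclin-dependent kinases, went from a mean of 10.17 ± 0.13 (SD) in wt to 10.13 ± 0.20 in S547A. At 4 h in wt cells the listed p53 targets responded unevenly to the drug. GADD45A and CDKN1A rose by 1.67 and 1.10, while BAX, FAS, SESN1 and ZMAT3 gave -0.18, -0.09, -0.12 and -0.18. The activity of p53 in the lines was not tested. Double-strand break repair genes (0 of 25, median -0.05) ranged from -0.33 for RAD52, detected on 3 of the 18 arrays, to 0.45 for XRCC5. The targets of etoposide were close in both lines. TOP2A read 11.01, 11.02 and 11.38 on the wt arrays against 11.27, 11.52 and 11.29 on the S547A arrays, overlapping, and its difference of 0.22 ± 0.15 had a 95% interval of -0.09 to 0.53. TOP2B gave 0.13 ± 0.15 with an interval of -0.18 to 0.43. When background-corrected arrays were scaled to a common median in place of quantile normalization, the median of all genes moved to -0.16. TOP2A and TOP2B then turned to -0.01 and -0.06. TDP2, which frees topoisomerase II from DNA ends, differed by 0.79 with the larger error of 0.34 (limma adjusted p = 0.748).

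Immediate early genes, which encode AP-1 and EGR transcription factors and MAP kinase phosphatases, had a median of -0.15, and 5 of 26 were positive, against 5447 of all 12055 genes. None was called. The lowest were IER2 (8.28 ± 0.07 in wt and 7.62 ± 0.30 in S547A, difference -0.66 ± 0.18, limma adjusted p = 0.433), FOSB (-0.60) and NR4A2 (-0.56), while FOS, JUN and EGR1 gave -0.03, -0.10 and -0.06. ZFP36, which destabilises cytokine mRNAs, was the highest with 0.36.

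The other lists held 0 called genes as well. Their medians were -0.04 for 30 G1/S and replication genes, -0.08 for 38 G2/M genes, 0.01 for 13 histone genes, -0.12 for 23 apoptosis genes, -0.03 for 19 stress response genes and -0.03 for 16 heat shock genes. For 27 interferon genes the median was 0.02, with IFIT5 (0.53) at the top and PSMB9 (-0.56) at the bottom. IFIT5 and PSMB9 were detected on 7 and 3 of the 18 arrays and rest on readings near background. For 16 cholesterol genes the median was 0.01. Metallothioneins (6) had -0.12, Notch and ID genes (23) -0.13, HOX genes (18) -0.12, matrix and adhesion genes (27) 0.07, ribosomal proteins (24) 0.01, oxidative phosphorylation (25) -0.03 and housekeeping genes (11) -0.07. In 4 of the 19 stress response genes the S547A arrays lay below all wt arrays (21.1%, background 7.42%). This was the highest such share of any list. The genes were ATF4 (-0.11), CEBPB (-0.25), DDIT3 and VLDLR (-0.16, detected on 4 of the 18 arrays). DDIT3, the transcription factor CHOP, was the lowest of that list with -0.54 ± 0.15 (limma adjusted p = 0.385).

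In the direction of lower expression in S547A, the gene with the smallest adjusted p was FILIP1, a filamin-binding protein, at 6.76 ± 0.18 in wt and 6.10 ± 0.05 in S547A. Its difference of -0.66 ± 0.13 missed the threshold (limma adjusted p = 0.0635), as did those of HOXB8 (-0.70, adjusted p = 0.238) and ID3, an inhibitor of basic helix-loop-helix factors (-0.62, adjusted p = 0.319). These 3 genes, and TNFRSF12A below, were named after their values were seen. FILIP1 was called lower when the mean of all kept probes was used for each gene or when only genes detected on every compared array were tested. TNFRSF12A, the receptor of TWEAK, differed by -0.72 ± 0.19 (adjusted p = 0.365) and was called lower when quantile normalization had no background correction and in the authors' deposited normalized intensities.

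The genes called between the lines without drug gave other values at 8 h. PDLIM5 went from 0.98 in untreated cells to -0.12 at 8 h, TET1 from -0.84 to -0.12, TENM1 from -1.21 to 0.18 and IL32, an NF-kB target, from 1.21 to 0.53. These genes were picked by their untreated values, and none was called in the interaction of 8 h and untreated, so no change is shown. Their untreated calls ended in 4 (IL32) to 6 (TET1) of the 6 fits that left out an array. CAPS, called lower in S547A at 4 h (-1.02), was at 0.23 at 8 h, and no gene was called for a change between these times. Across all 12055 genes the line difference at 8 h correlated with that in untreated cells at r = -0.06 (rho = -0.08) and with that at 4 h at r = 0.14 (rho = 0.12), as a description over genes that share arrays and are not independent.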

How the data were processed

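The authors' deposited table gives a linear intensity and a detection p-value for each of 47231 probes on 18 arrays, per the file headers. The submitters' processing notes name GenomeStudio; a build is not given in the sources used here. A second deposited table holds intensities the authors had normalized, used as an alternative. From the first table, neqc (limma 3.58.1, R 4.3.3, offset 16) computed log2 values by normexp background correction, fitted through the detection p-values, and quantile normalization of the deposited intensities. Symbols came from GEO's platform annotation (30112 probes with 1 symbol, 8 with several), 30073 of them updated through the RefSeq gene table of GRCh38.p14. The detection rule left 22161 probes, 16005 with 1 symbol, and each gene was read from its brightest one. limma fitted 6 group means over 18 arrays (12 residual degrees of freedom), with two-sided moderated tests and Benjamini-Hochberg adjustment over 12055 genes. The text names by rule RELA, up to 12 called genes in each direction without overlap, called members of the lists, genes called in the interaction, and CXCL8, CCL20, TNFAIP3, NFKBIA, SELE, VCAM1, ICAM1, TNF, PI3, CD83, TOP2A and TOP2B. Members and lists were chosen with earlier results of these data known. Where the dim line was undetected, a bound was computed against each array's lowest detected level. It compares means and allows for no error between arrays. Arrays of both lines that share a replicate number correlated weakly at 8 h (r of deviations 0.08, -0.01 and 0.11). Replicates 1 and 3 correlated best with their own number. No pairing is stated, and the main fit used none. The number of arrays limits the precision. Alternatives were other normalizations, filters, probe rules, moderation, the compared arrays alone, a replicate block and leaving out each array. The fits were tested on simulated data.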

Additional observations from a re-analysis of the deposited data

Results flagged for a closer look

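For 3 genes the fitted line difference at 8 h was called different from that in untreated cells, by the interaction term of the limma fit over all 12055 genes. The fitted line difference at 8 h exceeded that in untreated cells by 2.06 ± 0.27 (log2, SE) for SELE, by 1.70 ± 0.24 for VCAM1 and by 1.26 ± 0.18 for PI3, each with a limma adjusted p of 0.0103. None of the 3 was detected on an untreated array of either line, so the line difference before the drug was not measured and these sizes are set against background readings. Without wt replicate 1 of 8 h none of the 3 passed. All 3 S547A arrays lay above all 3 wt arrays at 8 h for each of them, which are the same values that enter the interaction.

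A probe with no gene symbol in the annotation used here, ILMN_1776181, differed by 0.96 ± 0.16 at 8 h. Its mean log2 level was 7.08 in wt and 8.04 in S547A. It was the only one called among the 6156 kept probes without a single symbol when all 22161 kept probes were tested (limma adjusted p over probes = 0.0218). The comparison of genes leaves such probes out.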

How the results depend on the processing

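SELE, VCAM1, PI3 and CXCL2 were called higher in all 16 alternatives at 8 h, while the other 9 called genes each lost the call in at least 1. Of the 13 genes called at 8 h, 10 were at least 2-fold by fitted value and 10 were NF-kB targets. All counts at 2-fold here are of fitted differences. Quantile normalization without background correction gave 23 (22 higher and 1 lower, 4 at 2-fold) and the authors' normalized intensities gave 23 (22 and 1, 4 at 2-fold). Offset 50 gave 22, all higher, with 5 at 2-fold. Scaling to a common median gave 7, all higher, 6 of them NF-kB targets. The 8 h arrays alone gave 6, all higher and all at least 2-fold, 5 of them NF-kB targets. The mean of all kept probes and the filter for detection on every array each called 1 gene lower. Leaving out 1 array gave 5 to 9 called genes, 5 to 9 higher, 0 lower, 5 to 8 at 2-fold and 5 to 7 NF-kB targets. The cause was not tested, except that fewer arrays entered the last fits and that of the 8 h arrays alone. TOP2A and TOP2B changed sign under median scaling (-0.0057 and -0.064), where RELA gave 0.28, NFKBIA 0.47 and TNF 0.34. An offset of 50 lowered ICAM1 to 0.82, BTK to 0.86, CXCL2 to 0.88, TNFAIP2 to 0.70 and C5 to 0.48. For 5 genes called in untreated cells, the alternatives gave 3 (quantile normalization), 3 (authors' table), 2 (median scaling), 1 (mean of probes), 3 (every array), 0 (compared arrays alone), 1 (replicate block) and 0 to 3 (leaving out 1 array). For 10 called at 4 h they gave 0 with the compared arrays alone and 4 to 10 with 1 array left out. For 3 called in the interaction of 8 h and untreated they gave 7 (offset 50), 0 (every array), 5 (compared arrays alone), 5 (trend and robust moderation) and 0 to 4 (1 array left out), and for that of 8 h and 4 h 0 throughout. For the 1256 genes of wt at 4 h, a comparison added after seeing the data, they gave 811 (median scaling) and 849 to 969 (1 array left out). With the replicate number as a block, 11 genes were called at 8 h, and CXCL1 and HAND1 lost the call. The numbers share no stated pairing, and 2 of 3 arrays per line correlated best with their own number. Testing all kept probes, also added later, called 11 probes. The share of probes detected on an array was at most 39.2%, and for genes near that limit only bounds can be given.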
